A study of Homo sapiens with 2 samples.

Results

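Chromosomes 18 and 3 carried 231 of the 661 distinct TCF4 peaks listed for TMD8 lymphoma cells, 103 on chromosome 18 and 128 on chromosome 3. Membership was decided by the chromosome of the peak alone, each interval was counted once, and the remaining chromosomes of the 23 in the table held 430 peaks. The peaks were assigned by the authors to 37 genes on chromosome 18 and 60 genes on chromosome 3, of 275 genes in all. These chromosomes were chosen because earlier results of the same data had shown many peaks there, so their number is a description.

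TMD8 is an established human cell line from a diffuse large B cell lymphoma, of the ABC (activated B cell-like) class. The labels describe it as without a TCF4 copy number gain, and TCF4 was expressed from a tetracycline-inducible construct after 24 hours in 60 ng/ml doxycycline. Chromatin immunoprecipitation and sequencing (ChIP-seq) gave 1 TCF4 ChIP library, and the whole cell extract gave 1 input library, both from induced cells of this 1 line. Binding without induction could not be set beside these values, and none of them has a replicate error. The table holds binding only, so the line was not checked against expression markers. The authors listed only peaks that belong to TCF4 signature genes, each gene marked Up or Down, and the labels do not state how the signature was derived.

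TCF4, also called E2-2, belongs to the E proteins, transcription factors with a basic helix-loop-helix domain. E proteins bind DNA as dimers at E-box sequences, spelled CANNTG, and are needed for the development of B cells and, for TCF4, of plasmacytoid dendritic cells. TCF4 and BCL2 both lie on the long arm of chromosome 18, and gains of this arm and of chromosome 3 are known in ABC-type lymphoma. Copy number was not analysed here.

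Peaks at start sites were few, and their sequence is shown because an E-box there is the clearest letter pattern that an E protein is known to use. Of the 11 peaks in the authors' promoter class on these chromosomes, those of NARS on chromosome 18 and of ALCAM, ZMAT3 and IQSEC1 on chromosome 3 reached the window from 250 bases before to 50 bases after a start site. The sequences below are RefSeq promoter windows of build GRCh38.p14, written 5′ to 3′ with every CANNTG in capitals. The peaks are in hg19 and were tied to these windows through the gene and the authors' distance, not by coordinate. A start site of another transcript may have been used by the authors. NARS (RefSeq symbol NARS1, an asparaginyl-tRNA synthetase gene) is at chr18:57621787-57622086 on the minus strand, ALCAM (an adhesion molecule gene of the immunoglobulin superfamily) at chr3:105366659-105366958 on the plus strand, and ZMAT3 (an RNA-binding zinc finger gene and known p53 target) at chr3:179071760-179072059 on the minus strand.
NARS: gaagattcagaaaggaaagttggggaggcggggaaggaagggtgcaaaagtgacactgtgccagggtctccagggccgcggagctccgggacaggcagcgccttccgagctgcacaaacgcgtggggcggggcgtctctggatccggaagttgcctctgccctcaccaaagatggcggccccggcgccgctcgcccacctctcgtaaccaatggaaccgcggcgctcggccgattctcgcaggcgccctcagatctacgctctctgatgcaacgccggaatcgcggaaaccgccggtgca
ALCAM: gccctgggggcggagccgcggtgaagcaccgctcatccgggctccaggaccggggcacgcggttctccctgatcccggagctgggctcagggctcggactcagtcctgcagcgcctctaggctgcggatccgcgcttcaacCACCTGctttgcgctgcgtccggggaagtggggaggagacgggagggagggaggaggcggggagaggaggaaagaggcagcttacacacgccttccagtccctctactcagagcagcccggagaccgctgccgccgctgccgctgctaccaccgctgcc
ZMAT3: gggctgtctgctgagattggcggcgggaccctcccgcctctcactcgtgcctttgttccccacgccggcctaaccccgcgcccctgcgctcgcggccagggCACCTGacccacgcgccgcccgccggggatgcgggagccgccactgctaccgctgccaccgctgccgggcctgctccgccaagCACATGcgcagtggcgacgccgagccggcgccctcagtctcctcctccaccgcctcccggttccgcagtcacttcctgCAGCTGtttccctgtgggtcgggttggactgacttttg
The ZMAT3 window held 3 E-boxes, of which the first reads CACCTG and the last CAGCTG. The ALCAM window held a single E-box, which reads CACCTG, and the NARS window held none. For ZMAT3 RefSeq lists 2 start sites, and the outer one is shown. Among 15843 protein-coding genes with a window of 300 bases, CANNTG occurred in 64.5%, its form CAGGTG in 19.9% and its form CAGCTG in 17.7%, with both strands read, so that CACCTG counts as CAGGTG. Of the 10 promoter-class genes on chromosomes 18 and 3 with a window, 6 held CANNTG, 2 held CAGGTG and 1 held CAGCTG. A match in these windows describes letters and is no binding site. ABHD10 is the other gene of the class. IQSEC1 also has 2 start sites in RefSeq, far apart, and its window is not shown. That window was counted above and, like the NARS window, held no CANNTG. The windows of ANAPC13, DHX36, CCNL1 and THOC1 held CANNTG, but the peaks of these genes did not reach them. The peak sequences themselves were not analysed here.

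The promoter-class peaks ranged from 2.44-fold to 10.2-fold. In the NARS peak 76 ChIP and 19 input reads gave a fold of ChIP over input of 5.24 (counting interval 3.14 to 9.17), and it lay upstream of the start. The ALCAM peak held 107 and 24 reads, a fold of 5.84, and the ZMAT3 peak 126 and 21 reads, a fold of 7.86. IQSEC1, which encodes an exchange factor for ARF GTPases, had 201 ChIP and 27 input reads at its start, a fold of 9.75 (6.50 to 15.2). These 4 peaks lay within the range of the rest of their chromosomes. Other promoter-class peaks on chromosome 18 belonged to BCL2, whose protein blocks apoptosis, with 8.22-fold, and THOC1, an mRNA export gene, with 3.27-fold. On chromosome 3 they belonged to DHX36, a helicase gene, with 10.2-fold from 39 ChIP and 5 input reads, to ANAPC13, an anaphase-promoting complex gene, with 6.55-fold, and to CCNL1, a cyclin L gene, with 4.23-fold. ABHD10, a hydrolase gene, had 3.67-fold, and PCNP had 2.44-fold in a peak of 150 bp. Every fold here is the ratio of ChIP to input reads times the authors' library scaling of 1.31, and the exact 95% interval beside it reflects counting error in these libraries only.

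The long arms held most of the peaks. On chromosome 18, 86 peaks at 31 genes lay on the long arm and 17 peaks at 6 genes on the short arm. On chromosome 3, 85 peaks at 47 genes lay on the long arm and 43 peaks at 13 genes on the short arm. Set beside the protein-coding genes in RefSeq, the long arm of chromosome 3 held 78.3% of that chromosome's named genes and 53.0% of its protein-coding genes. For chromosome 18 the shares were 83.8% and 74.1%. The table named 15.5 genes per 100 protein-coding genes on 18q, 8.57 on 18p, 8.32 on 3q, 2.59 on 3p and 0.951 on the other chromosomes. Since the table lists only signature genes with a peak, these shares describe the table and not how often genes on an arm are bound.

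Along chromosome 18 no bin of 10 Mb was empty, whereas 4 of 20 bins on chromosome 3 held no peak. The densest bin on chromosome 18 ran from 50 to 60 Mb, with 28 peaks at 6 genes, among them NEDD4L, PMAIP1 and TCF4. The densest on chromosome 3 ran from 120 to 130 Mb, with 21 peaks at 12 genes. The bins with at least 10 peaks held 81 peaks on each chromosome, in 5 bins of chromosome 18 and in 6 of chromosome 3. The distal bin of chromosome 18, from 70 to 80 Mb, had 14 peaks at 4 genes and the highest median fold of that chromosome's bins, 11.03.

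The longest stretch without a listed peak lay on the short arm of chromosome 3. It ran for 28.3 Mb from the last peak of TRAK1 at 42236628 to the first of FOXP1 at 70565314 (hg19), and RefSeq orders 280 protein-coding genes between these genes. Further gaps on chromosome 3 were 16.7 Mb between NR2C2 and OSBPL10, with 48 protein-coding genes, and 15.2 Mb between SHQ1 and CGGBP1, with 15. The gap of 12.4 Mb between CGGBP1 and TFG spans the centromere. On chromosome 18 the longest gap was 6.60 Mb, between VPS4B and RTTN, with 18 protein-coding genes, and the gap across the centromere, between SEH1L and ESCO1, was 6.08 Mb. A stretch without a peak here is one without a listed signature gene, and it cannot be called unbound.

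**Figure D1:**
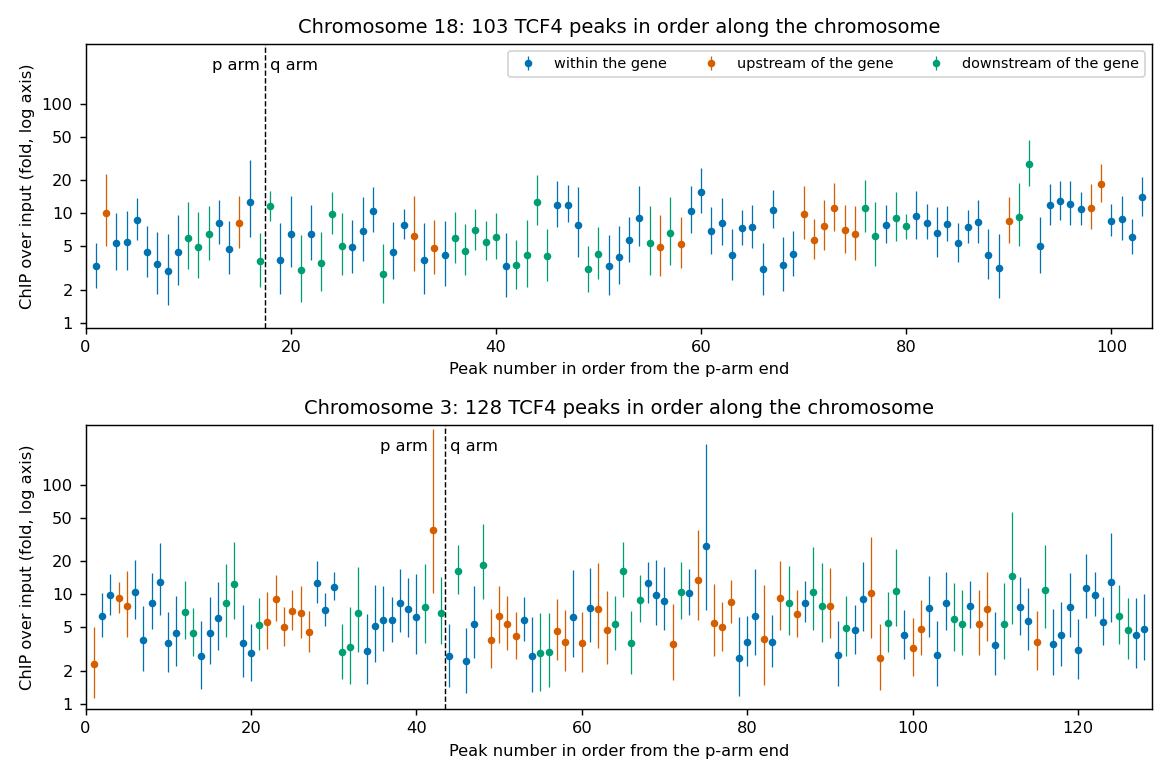
Fold of ChIP over input (log axis) for each TCF4 peak in its order along chromosome 18 (top, 103 peaks) and chromosome 3 (bottom, 128 peaks), coloured by the authors' position class, with exact 95% counting intervals as bars and a dashed line at the centromere. Peaks number 17 on the short arm of chromosome 18 and 43 on that of chromosome 3, and the longest bar, of SHQ1, belongs to a peak with 2 input reads.

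Peaks gathered around single genes on both chromosomes. With peaks chained by gaps of at most 50 kb, chromosome 18 had 23 groups of several peaks and 26 single peaks, and chromosome 3 had 31 groups and 48 single peaks. A single gene name covered 22 of the 23 groups on chromosome 18 and 28 of the 31 on chromosome 3, as it did 110 of 112 groups elsewhere. A table limited to signature genes leaves few groups with more than 1 name. A neighbour within 50 kb was present for 77 peaks on chromosome 18 (74.8%, 65.2 to 82.8), for 80 on chromosome 3 (62.5%, 53.5 to 70.9) and for 311 on the other chromosomes (72.3%, 67.8 to 76.5). These exact binomial intervals overlapped. They treat peaks as independent, but neighbours count for each other and mostly carry the same gene name, so the shares are descriptions. The median gap to the nearest peak was 30.9 kb (19.9 to 38.95) on chromosome 18, 24.6 kb (20.1 to 41.3) on chromosome 3 and 25.01 kb (22.2 to 28.7) elsewhere. Groups of at least 4 peaks held 42 peaks on chromosome 18, in 8 groups, and 18 peaks on chromosome 3, in 4 groups.

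The groups with more than 1 gene name were few. On chromosome 18, MBD1, which encodes a methyl-CpG binding protein, and CXXC1, which encodes a CpG-binding subunit of a histone methyltransferase complex, shared a group of 3 peaks spanning 24.8 kb, with a pooled fold of 9.78. On chromosome 3, PCNP and ZBTB11 shared 3 peaks over 57.5 kb (7.18-fold), and ZNF148 and SNX4 shared 2 over 22.1 kb (7.53-fold). In such groups the gene name is the authors' assignment, and 1 peak may lie nearer to a neighbour.

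Genes with many peaks took a larger part of chromosome 18. There, 8 genes with at least 4 peaks held 54 of 103 peaks (52.4%), against 7 genes with 42 of 128 peaks on chromosome 3 (32.8%) and 36 genes with 179 of 430 peaks elsewhere (41.6%). A gene had 2.78 ± 2.43 peaks on chromosome 18 (SD, 37 genes), 2.13 ± 1.80 on chromosome 3 (60 genes) and 2.42 ± 1.54 elsewhere (178 genes). Single peaks marked 16 genes on chromosome 18, 29 on chromosome 3 and 61 elsewhere.

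On chromosome 18 the longest group was at MBP, the gene of myelin basic protein, where 7 peaks followed each other over 198 kb without a gap above 50 kb. Together they held 1698 ChIP and 173 input reads, a pooled fold of 12.9 (11.0 to 15.1), the highest among the 15 genes with at least 4 peaks. NFATC1, the gene of a calcium-responsive transcription factor, came next with 1283 and 157 reads in 5 peaks, 10.7-fold (9.06 to 12.7). These genes are neighbours in the table at the distal end of the long arm. In the middle of the arm, PMAIP1, which encodes the pro-apoptotic protein NOXA, had 899 and 148 reads in 8 peaks, 7.95-fold (6.68 to 9.53), none of them within the gene. NEDD4L, the gene of a ubiquitin ligase that acts on membrane proteins and SMADs, had 1405 and 235 reads in 10 peaks, all within the gene, 7.83-fold (6.81 to 9.03). BCL2 had 1737 and 298 reads in 9 peaks, 7.63-fold (6.75 to 8.66). The pooled folds of PMAIP1, NEDD4L and BCL2 overlapped, and those of MBP lay above all 3.

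SMAD2, the gene of a TGF-beta signal transducer, and TCF4 itself had lower pooled folds on chromosome 18. SMAD2 had 562 ChIP and 132 input reads in 6 peaks, 5.58-fold (4.60 to 6.79), 5 of them in the authors' downstream class. TCF4 had 342 and 88 reads in 5 peaks, 5.09-fold (4.02 to 6.51). The lowest value was at ANKRD12, an ankyrin repeat protein gene on the short arm, with 170 and 58 reads in 4 peaks, 3.84-fold (2.83 to 5.26). ANKRD12 also had the highest input density of these genes, 46.3 reads per kb of peak. Its interval lay below that of NEDD4L, BCL2, PMAIP1, NFATC1 and MBP.

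On chromosome 3 the genes with many peaks had lower pooled folds, with IQSEC1 and TRAK1 as exceptions. IQSEC1 had 705 ChIP and 108 input reads in 4 peaks, 8.55-fold (6.97 to 10.6). TRAK1, the gene of an adaptor for mitochondrial transport, had 1621 and 263 reads in 9 peaks, 8.07-fold (7.08 to 9.23). By the authors' class 6 were upstream, which refers to the transcript paired with each peak and not to the whole gene. TRAK1 also included the widest peak of the chromosome, 1402 bp. FOXP1, a forkhead factor gene of B cells, had 519 and 127 reads in 10 peaks spread over 857 kb, 5.35-fold (4.40 to 6.55). The other 4 genes, ALCAM, CCNL1, GPD1L (a glycerol phosphate dehydrogenase-like gene) and MAP3K13 (a kinase gene), ran from 4.67-fold to 4.93-fold. Each of these 4 overlapped FOXP1 in its interval, and all 4 lay below TRAK1 and IQSEC1. No peak of MAP3K13 or GPD1L was in the promoter class.

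**Figure D2:**
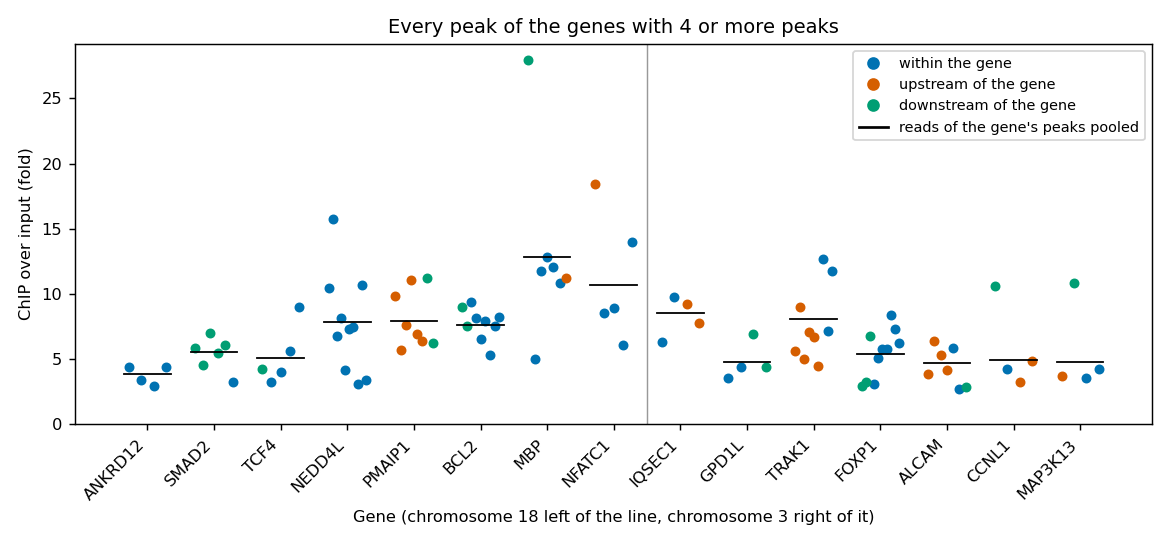
Fold of ChIP over input for every peak of the 15 genes with at least 4 peaks, 8 on chromosome 18 (left of the line) and 7 on chromosome 3 (right), in genome order, coloured by the authors' position class, with a black bar for the gene's pooled reads. MBP has the highest pooled fold, 12.9, and ANKRD12 the lowest, 3.84.

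The highest single peaks rested on different depths on these chromosomes. Ranked by the authors' normalized log2 ratio, which adds 1 read to each count, the 8 highest on chromosome 18 belonged to MBP, NFATC1, NEDD4L, ACAA2 (a mitochondrial thiolase gene) and CXXC1. The MBP peak from 74666276 to 74667001 (hg19), downstream of the gene, had 405 ChIP and 19 input reads and 27.9-fold enrichment (17.6 to 46.85). The NFATC1 peak from 77123151 to 77124051, upstream of the gene, held 394 and 28 reads, 18.4-fold (12.6 to 28.1). The NEDD4L peak from 55811801 to 55812551 held 252 and 21 reads, 15.7-fold (10.1 to 25.8). On chromosome 18 the fewest input reads in any peak were 8.

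On chromosome 3 the 8 highest belonged to SHQ1, RUVBL1, ZBTB11, TFG, CCDC14, TRAK1, HEG1 and MCCC1. SHQ1, a gene for assembly of RNA-protein particles, led with 38.6-fold (10.2 to 326) from 59 ChIP and 2 input reads. RUVBL1, an ATPase gene of chromatin remodelling complexes, had 27.5-fold (7.15 to 235) from 42 and 2 reads. With so few input reads, both intervals overlapped those of the next 3 peaks in the ranking. TFG, a gene of protein export from the endoplasmic reticulum, had 16.3-fold (10.1 to 28.0) from 224 and 18 reads, and ZBTB11, a zinc finger gene, had 18.3-fold (8.99 to 43.5) from 112 and 8 reads. CCDC14 had 16.2-fold (9.39 to 30.2) from 173 and 14 reads. HEG1, the gene of a membrane protein of endothelial junctions, had 12.6-fold (8.39 to 19.7) from 250 and 26 reads and was the single gene marked Down among the 97, against 45 Down genes of 178 elsewhere. Fewer than 8 input reads were counted in 13 of 128 peaks of chromosome 3, in 25 of 430 elsewhere and in 38 of all 661. On chromosome 18 the lowest input count was 8, so this limit leaves no peak there by construction.

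The lowest folds lay in narrow peaks. On chromosome 3 they belonged to CRBN, which encodes cereblon, the known target of lenalidomide, with 2.32-fold (1.13 to 4.98) from 23 ChIP and 13 input reads, to PCNP with 2.44-fold (1.26 to 4.92), and to TMCC1 with 2.62-fold (1.17 to 6.27). All 3 peaks were 150 bp wide. On chromosome 18 the lowest belonged to RNF138, a ubiquitin ligase gene, with 2.77-fold (1.52 to 5.26), ANKRD12 with 2.95-fold (1.44 to 6.38) and ABHD3 with 3.02-fold (1.53 to 6.31). The narrowest peak of chromosome 18, 150 bp at BCL2, was an exception with 131 ChIP and 19 input reads and 9.03-fold (5.56 to 15.5). It also had the highest input density of the chromosome, 127 reads per kb.

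Read densities differed between chromosomes 18 and 3, more in the ChIP than in the input library. In all peaks of chromosome 18 together, 12628 ChIP reads fell on 62.9 kb, or 201 per kb, and on chromosome 3, 9706 ChIP reads fell on 64.4 kb, or 151 per kb. The ratio of chromosome 18 to chromosome 3 was 1.33 (1.30 to 1.37). Input reads were also denser on chromosome 18, with 2179 reads or 34.6 per kb, than on chromosome 3, with 1901 reads or 29.5 per kb, a ratio of 1.17 (1.10 to 1.25). Against the other chromosomes, with 181 ChIP and 31.3 input reads per kb, chromosome 18 lay above in both libraries and chromosome 3 below. For chromosome 18 the ratios were 1.11 (1.09 to 1.13) in the ChIP and 1.11 (1.05 to 1.16) in the input library. For chromosome 3 they were 0.831 (0.813 to 0.850) and 0.942 (0.896 to 0.990). These intervals treat reads as independent, so they do not hold the spread between peaks.

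Medians over single peaks showed the same order. The median peak had 168 ChIP reads per kb (143 to 195) on chromosome 18, 121 (114 to 133) on chromosome 3 and 144 (137 to 153) elsewhere. For input reads the medians were 36.0 per kb (33.1 to 37.3), 29.5 (26.2 to 31.8) and 31.8 (30.4 to 33.2). The intervals here are binomial ones for a median over peaks, which share genes and are not replicates. Those of chromosomes 18 and 3 did not overlap in either library. Against the others, chromosome 18 overlapped in both libraries, and chromosome 3 overlapped in input and lay below in the ChIP library. Leaving out any 1 gene of either chromosome kept the input ratio of chromosome 18 to 3 between 1.16 and 1.21. The lowest ChIP density was 87.1 reads per kb on chromosome 18 and 87.5 both on chromosome 3 and elsewhere.

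Chromosome 3 had the lowest ChIP density of the better covered chromosomes, and chromosome 18 lay inside their range. Among the 9 chromosomes with at least 20 peaks, pooled input density ran from 25.8 per kb on chromosome 10 to 35.1 on chromosome 12, and ChIP density from 151 on chromosome 3, with 158 on chromosome 2 next, to 212 on chromosome 6. Of all 23 chromosomes, chromosome 18 ranked 6 from the top in both densities, and chromosome 3 ranked 17 in input and 21 in ChIP density. The input was counted only inside the peaks, so it is not a measure of the chromosome as a whole, and the part of copy number in these densities was not tested.

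**Figure D3:**
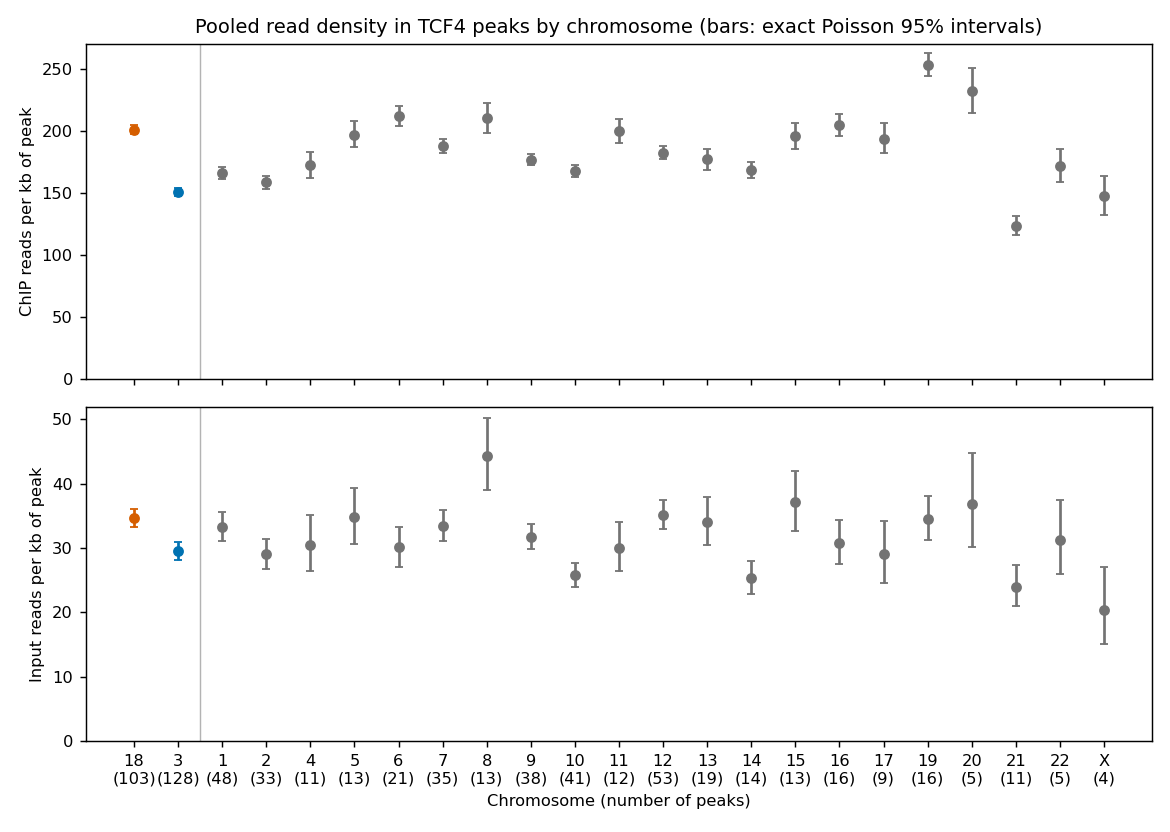
Pooled ChIP (top) and input (bottom) reads per kb of TCF4 peak for each chromosome, with exact Poisson 95% intervals and the number of peaks below each name. Chromosome 18 (orange) had 201 ChIP and 34.6 input reads per kb, and chromosome 3 (blue) 151 and 29.5.

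The enrichment over input was close on the chromosomes. The median fold was 6.42 (5.62 to 7.51, quartiles 4.41 and 8.92) on chromosome 18, 5.90 (5.35 to 6.79, quartiles 4.21 and 8.40) on chromosome 3 and 6.44 (6.08 to 6.81) elsewhere, and these intervals overlapped. With all reads pooled the fold was 7.59 (7.25 to 7.95) on chromosome 18, 6.69 (6.36 to 7.03) on chromosome 3 and 7.58 (7.41 to 7.75) elsewhere. The pooled fold of chromosome 3 was thus 0.882 times (0.836 to 0.932) that of the others, but in peaks of 300 to 1000 bp the ratio was 0.970 (0.913 to 1.03), which includes 1. With only the highest peak of each gene it was 0.852 (0.782 to 0.929), and in peaks at or above the median ratio 0.953 (0.883 to 1.03). For chromosome 18 over chromosome 3 the ratio of pooled folds was 1.14 (1.06 to 1.21), and 1.06 (0.986 to 1.15) in that width range. It was 1.08 (0.970 to 1.21) with 1 peak per gene and 1.03 (0.937 to 1.12) at or above the median ratio. Each of these alternative intervals for chromosome 18 over 3 includes 1.

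Counts of peaks with a fold well above 1 were near the background of the table. The lower bound of the fold exceeded 2 in 90 of 103 peaks on chromosome 18 (87.4%), in 101 of 128 on chromosome 3 (78.9%) and in 85.5% of all 661 peaks, 87% of those elsewhere. It exceeded 4 in 47 peaks on chromosome 18 (45.6%), in 48 on chromosome 3 (37.5%) and in 43.9% of all peaks, 45.3% of those elsewhere. The authors selected the peaks on the same libraries, so these shares test no enrichment. The lower bound exceeded 1 in all 231 peaks of both chromosomes.

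With reads pooled, the short arm of chromosome 18 had a lower fold than the long arm. The 17 peaks of the short arm had a pooled fold of 5.82 (5.10 to 6.66), and the 86 peaks of the long arm 7.84 (7.47 to 8.24), a ratio of 0.742 (0.645 to 0.854). Without MBP and NFATC1, left out after their values were seen, the ratio was 0.831 (0.721 to 0.958). Medians over peaks overlapped, at 5.33 (4.39 to 8.09) on the short arm and 6.67 (5.86 to 7.82) on the long arm. Peaks of the short arm were also narrower, with a median of 409 bp (390 to 465) against 525 bp (476 to 617) on the long arm, and the part of width was not tested. Both densities moved with the pooled difference: the short arm had 173 ChIP and 39.0 input reads per kb, and the long arm 204 and 34.1. On chromosome 3 the fold was 7.00 (6.47 to 7.58) on the short arm and 6.48 (6.08 to 6.91) on the long arm, a ratio of 1.08 (0.977 to 1.19), which includes 1.

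Peaks on chromosome 3 were narrower than those of the other chromosomes pooled. The median width was 492 bp (456 to 575) on chromosome 18, 450 bp (425 to 475) on chromosome 3 and 513.5 bp (478 to 550) elsewhere. The interval of chromosome 3 lay below that of the others and overlapped that of chromosome 18. Among the 9 chromosomes with at least 20 peaks, chromosome 12 had the lowest median width, 435 bp. Peaks above 1000 bp numbered 14 on chromosome 18 (13.6%, 7.63 to 21.8), all on its long arm, 5 on chromosome 3 (3.91%, 1.28 to 8.88) and 56 elsewhere (13.0%, 9.99 to 16.6). The widest was a peak of 1908 bp at BCL2. Wider peaks had higher folds, with Spearman's rho of 0.57 on chromosome 18 (103 peaks), 0.66 on chromosome 3 (128 peaks) and 0.61 elsewhere (430 peaks), and width and input density ran against each other, with rho of −0.43, −0.43 and −0.41. These are descriptions across peaks of 1 pair of libraries, and each measure shares the peak's length or reads with the other.

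By the authors' distances, peaks of both chromosomes lay farther from start sites than elsewhere in the table. Each distance runs to the start of the transcript paired with the peak, which need not be the nearest start. At FOXP1, neighbouring peaks with 19650 bp between them were given 125396 and 344105 bp. The median distance to the transcription start site (TSS) was 65.4 kb (51.9 to 87.4) on chromosome 18, 46.6 kb (37.2 to 54.5) on chromosome 3 and 32.3 kb (27.3 to 36.9, 423 peaks with a distance) elsewhere, and the intervals of both chromosomes lay above that of the others. More than 100 kb separated 33.01% of peaks on chromosome 18, 24.2% on chromosome 3 and 15.1% elsewhere from the TSS. Peaks of 1 gene repeat its distances, so the nearest peak of each gene was also taken, which gave 26.8 kb (12.8 to 44.6, 37 genes), 20.1 kb (11.3 to 42.5, 60 genes) and 12.8 kb (10.2 to 17.1, 176 genes). These last intervals overlapped. The named genes had a median RefSeq length of 75.1 kb (53.5 to 124) on chromosome 18, 56.3 kb (35.3 to 79.8) on chromosome 3 and 38.1 kb (29.3 to 47.1) elsewhere. The length interval of chromosome 18 lay above that of the others, and that of chromosome 3 overlapped it. The parts of gene length and of transcript choice in the distances were not tested.

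**Figure D4:**
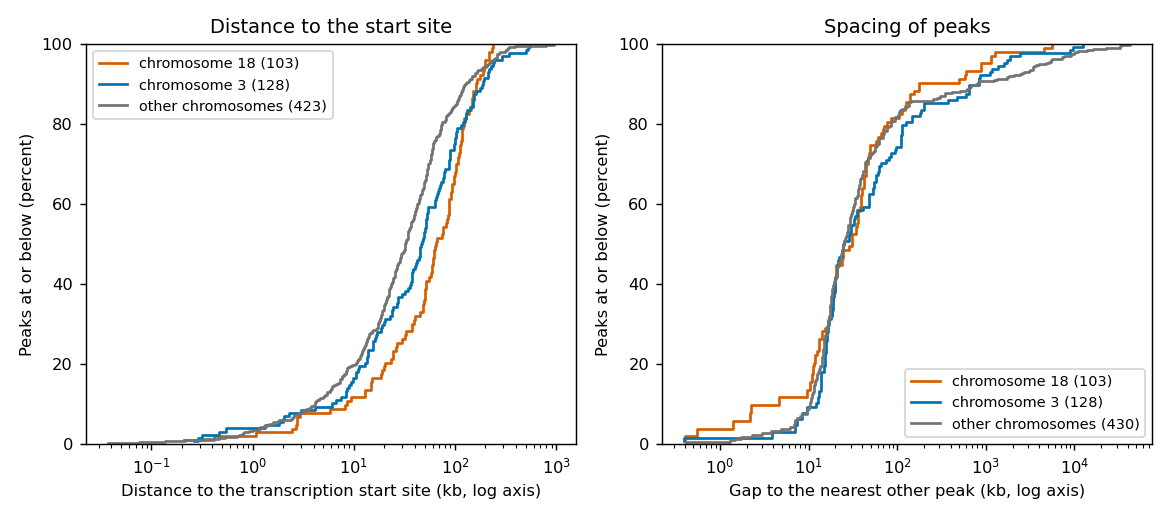
Cumulative percent of peaks by the authors' distance to the transcription start site (left) and by gap to the nearest other peak (right), both in kb on log axes. Curves are for chromosome 18 (orange), chromosome 3 (blue) and the other chromosomes (grey), with the number of peaks in brackets. The start site curves separate, with medians of 65.4, 46.6 and 32.3 kb, whereas the gap curves run close, with medians of 30.9, 24.6 and 25.01 kb.

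By the authors' position classes, 59 peaks of chromosome 18 lay within the gene (57.3%, 47.2 to 67.0), 15 upstream (14.6%, 8.39 to 22.9) and 29 downstream (28.2%, 19.7 to 37.9). On chromosome 3, 61 lay within (47.7%, 38.8 to 56.7), 35 upstream (27.3%, 19.8 to 35.9) and 32 downstream (25%, 17.8 to 33.4). Elsewhere 52.1% lay within, 24.4% upstream and 23.5% downstream. Each class refers to the transcript paired with the peak, so a peak classed outside may lie within the longer RefSeq gene. For the IQSEC1 peak at a start site, that transcript spanned 176076 bp and the RefSeq gene 386215 bp. The part of transcript choice in these shares was not tested. Upstream peaks were the least frequent class on chromosome 18, and 6 of the 15 belonged to PMAIP1. The promoter class held 3 peaks on chromosome 18 (2.91%, 0.605 to 8.28), 8 on chromosome 3 (6.25%, 2.74 to 11.9) and 25 elsewhere (5.81%, 3.80 to 8.46). The intervals overlapped in every class.

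Of 40 genes listed for B cell, apoptosis and signalling biology on these chromosomes, several of them known from earlier results, the table named 8 of 18 on chromosome 18 and 3 of 22 on chromosome 3. Over all protein-coding genes it named 13.7 per 100 on chromosome 18 and 5.63 per 100 on chromosome 3. Members such as MBP, TRAK1 and ALCAM were listed with their peaks known, which fixes part of these counts, so they are no result about the list. On chromosome 18 these were TCF4, BCL2, NFATC1, PMAIP1, SMAD2, SMAD4, NEDD4L and MBP, with 1 to 10 peaks each. SMAD4, the shared partner of signalling SMADs, had a single downstream peak of 3.06-fold. On chromosome 3 they were FOXP1, TRAK1 and ALCAM. The germinal centre repressor BCL6, the adaptor MYD88 and the T cell ligand genes CD80 and CD86 on chromosome 3, and MALT1, a signalling scaffold gene on chromosome 18, were not named. They cannot be called unbound, because only peaks of signature genes were listed. All 37 genes named on chromosome 18 were marked Up, as were 59 of the 60 on chromosome 3, against 133 of 178 genes elsewhere and 229 of 275 in the whole table.

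The remaining genes had 1 to 3 peaks each, and the following were picked after their values were seen. On chromosome 18, ESCO1, a cohesin acetyltransferase gene, had 3 peaks of 3.69 to 11.5-fold, and RBBP8, a DNA end resection gene, had 1 of 3.52-fold. On chromosome 3, TOPBP1, a checkpoint activator gene, had 2 of 3.67 and 9.17-fold, and ATR, a checkpoint kinase gene, had 1 of 2.81-fold. PTPN2, a phosphatase gene of JAK-STAT signalling on 18p, had 4.73 and 8.13-fold, and CD47, the gene of a signal against phagocytosis on 3q, had 1 peak of 2.98-fold. Each of these folds lay between 2.81 and 11.5, inside the range of its chromosome.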

How the data were processed

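The submitters' processing notes name BWA, GATK and hg19, without versions. No source used here names the peak caller. Spike-in chromatin was added to the lysates per the labels' protocols, which do not state if the scaling used it. Values deposited by the authors are counts of ChIP and input reads per peak, log2 ratios, a normalized read density (signal) and −log10 p-values per peak, per the file headers. The input column carries the letters IC and was taken as the only other library. The deposited log2 ratio equalled log2 of reads plus 1 in 661 of 661 peaks, within 1e-06, and the normalized one adds 0.39, a scaling of 1.31. The densities and −log10 values were not used further.

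The table had 662 lines for 661 intervals. Distances and position classes are the authors' own, measured from a partner region of each peak. Arms were divided at 91 Mb on chromosome 3 and 17 Mb on chromosome 18, round positions inside the centromere. Intervals are exact (Clopper-Pearson) for shares and folds, conditional for ratios of densities, binomial for medians, and log-scale normal from the 4 read totals for ratios of pooled folds, at the 95% level. PCR copies are not independent, so read intervals are too narrow. All 231 peaks had an accession in RefSeq (GRCh38.p14), which gave lengths, gene order and arm counts only. No test was run, because there is 1 library of each kind. Members, lists and measures were chosen with earlier results of these data known. Genes named are those of the 8 highest and 3 lowest peaks, with at least 4 peaks, in the promoter class, marked Down, at the widest and narrowest peaks and in the 3 largest groups of each chromosome, and exceptions are stated. Interval functions were tested on simulated data. Python 3.11.15, numpy 2.4.6, scipy 1.17.1, pandas 2.3.3 and matplotlib 3.10.9 were used. Alternatives covered stricter ratios, 1 peak per gene, a width range, other windows and gaps, and 1 added read. A group of neighbouring peaks on chromosome 3 is not reported here.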

Additional observations from a re-analysis of the deposited data

How the results depend on the processing

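Of 70 alternative values for 23 results, 35 stayed within the 95% interval of the result or within 1.5 times a count, scored for each chromosome or ratio by itself, and 0 ratios crossed 1. The order of chromosomes 18 and 3 did turn round in some: the neighbour share at 25 kb was 48.5% on chromosome 18 and 50.8% on chromosome 3, and the median fold in peaks of 300 to 1000 bp was 5.95 on chromosome 18 and 6.35 on chromosome 3. Restricting to the 331 peaks at or above the median ratio left 53 peaks on chromosome 18 and 58 on chromosome 3 by construction, with 7 and 12 genes of several peaks, median folds of 8.88 and 8.82, median widths of 607 and 525 bp and neighbour shares of 58.5% and 44.8%. In these peaks the input ratio was 1.32 for chromosome 18 over 3, 1.17 for 18 over the others and 0.886 for 3 over the others, the ChIP ratio of 18 over the others was 1.14, and the fold ratio of 18p over 18q was 0.865. With 1 peak per gene, the one with the highest ratio, median folds were 7.86 on chromosome 18 and 7.75 on chromosome 3, input ratios 1.46 (18 over 3), 1.20 (18 over the others) and 0.822 (3 over the others), ChIP ratios 1.58 (18 over 3) and 0.701 (3 over the others), and the promoter share of chromosome 18 was 0%. In peaks of 300 to 1000 bp the ChIP ratios to the others were 1.16 for chromosome 18 and 0.871 for chromosome 3. By medians over peaks the ChIP ratio was 1.16 for chromosome 18 over the others and 1.38 for 18 over 3. Counting genes gave 37 on chromosome 18 and 60 on chromosome 3, with 78.3% of the genes of chromosome 3 on its long arm. Neighbour shares were 74.2% at 100 kb for chromosome 3, and 90.3% and 85.2% at 200 kb for chromosomes 18 and 3. Keeping only high or highest peaks lowers counts and raises median folds by construction, and another gap limit shifts neighbour shares. For the widths, the promoter share and the density and fold ratios the cause was not tested. Leaving out MBP and NFATC1 was chosen after seeing the data. No paired analysis was possible because each kind of library occurs once. Few input reads limit the folds of SHQ1 and RUVBL1 most.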
